A study of Drosophila melanogaster with 60 samples.

Results

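The genes of the Toll pathway were followed in the brains of male Drosophila melanogaster: the ligand gene spz, the receptor gene Tl, the adaptor genes Myd88 and tub, the kinase gene pll, the inhibitor gene cact, the transcription factor genes dl and Dif, and Rel, the transcription factor gene of the neighbouring Imd pathway. Members were all deposited peak intervals that overlapped the Release 6 span of 1 of these 9 genes. H3K4me3 gave 30 such intervals of 14894, over 8 of the genes. RNA polymerase II (RNAPolII) gave 22 of 21113, over 7 of the genes.

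In this pathway the cleaved ligand Spätzle, the product of spz, binds the receptor Toll, the product of Tl. The receptor then gathers the adaptors Myd88 and Tube (tub) and the kinase Pelle (pll), the inhibitor Cactus (cact) is degraded, and the NF-kappaB factors Dorsal (dl) and Dif enter the nucleus. The pathway is known for patterning the back-to-belly axis of the embryo and for the defence against fungi and many bacteria. Relish (Rel) is the NF-kappaB factor of the Imd pathway, which is started by other receptors.

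The study asked how housing and mutations that touch pheromone sensing or sex identity alter chromatin in the male brain. It used CUT&RUN, a method that sequences the DNA cut free around an antibody's target, with antibodies to H3K4me3, a histone mark typical of active promoters, and to RNAPolII. The groups were Or47b males (w+/Y; Or47b2/3;+/+), Or67d males (w+/Y; +/+; Or67dGAL4/GAL4), fru males (w+/Y; +/+; fruLexA/4-40), dsx males (w-/Y; +/+; dsxf00683-d07058/f01649-d09625) and CS males, the wild type Canton-S. Or47b and Or67d encode odorant receptors for pheromones, and fru and dsx encode regulators of sexual behaviour and sexual development. Males of each genotype were kept singly (SH) or in a group (GH). Each group had 3 libraries per antibody, labelled as biological replicates, so each comparison of a mutant with CS set 6 libraries beside 6. A library pooled 15 brains for H3K4me3 and 30 for RNAPolII. Strain background may differ between mutants and CS too, so mutation and background cannot be told apart here. The dsx genotype alone is written with w-, so the white gene differs with it too.

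H3K4me3 libraries held 2309386 to 9269525 reads in peaks and RNAPolII libraries 3007711 to 6459322. Among H3K4me3 libraries, CS GH 2 and CS GH 1 had the lowest median correlation with the others, 0.960 and 0.963. Among RNAPolII libraries, the lowest median correlations were those of Or47b SH 3 (0.957), dsx GH 2 (0.961), Or67d GH 3 (0.961) and Or47b GH 3 (0.962). All 10 genes of a neuron marker list had an H3K4me3 interval. Of 10 glia markers 7 had one, and the defining glia gene repo, with Mdr65 and nrv2, had none. Of 10 eye markers 9 had one and of 10 muscle markers 6, so having an interval does not by itself set tissues apart here. Values are the deposited ones, reads per interval after scaling each library by 1 size factor. Changes are on the scale of log2(value + 1), fitted with limma across all tested intervals, with Benjamini-Hochberg adjusted p-values and a threshold of 0.05.

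Most of the H3K4me3 signal of the pathway lay at tub, pll and cact. Per kb of interval and averaged over 30 libraries, the interval of highest mean held 773 ± 87.3 at tub, 670 ± 95 at pll and 419 ± 69.6 at cact (SD, n = 30), against a median of 37.1 over all 14513 tested intervals. The pll interval also lay over TfIIA-L, so its signal cannot be given to pll alone. The other genes had much lower levels per kb: 64.2 ± 18.3 at spz, 44.6 ± 15.2 at dl, 43.4 ± 5.99 at Myd88, 42.6 ± 14.1 at Dif and 22.3 ± 5.51 at Tl. Among these, the levels of dl, Myd88 and Dif differed by less than their SD. The intervals were chosen by value and not per kb, so the order of the genes depends on that choice. The other Tl intervals had 22.0 ± 3.98 to 91.6 ± 30.3 per kb (SD, n = 30), the highest at an interval of 158 bp with a mean value of 14.5. The 8 genes thus fell into a strong set (tub, pll, cact) and a weak set, with the ligand and receptor genes in the weak one. No interval of either antibody overlapped Rel, which was not analysed further here.

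Tl stood out by the number of its intervals rather than their strength. It had 13 H3K4me3 intervals, against 5 over Dif, 3 each over dl and Myd88, 2 each over spz and tub and 1 each over pll and cact. Tl was also the longest of these genes. The highest mean value over Tl belonged to its last interval along the chromosome (3R:26837803-26841239, as the deposited table gives it). At 3436 bp this interval was longer than 99.7% of tested intervals, and its level per kb was above only 13.5% of them. Over the 30 libraries the 13 Tl intervals did not vary together: the Pearson correlation of their log2 values was -0.42 to 0.46 over 78 pairs, with a median of -0.0035.

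**Figure D1:**
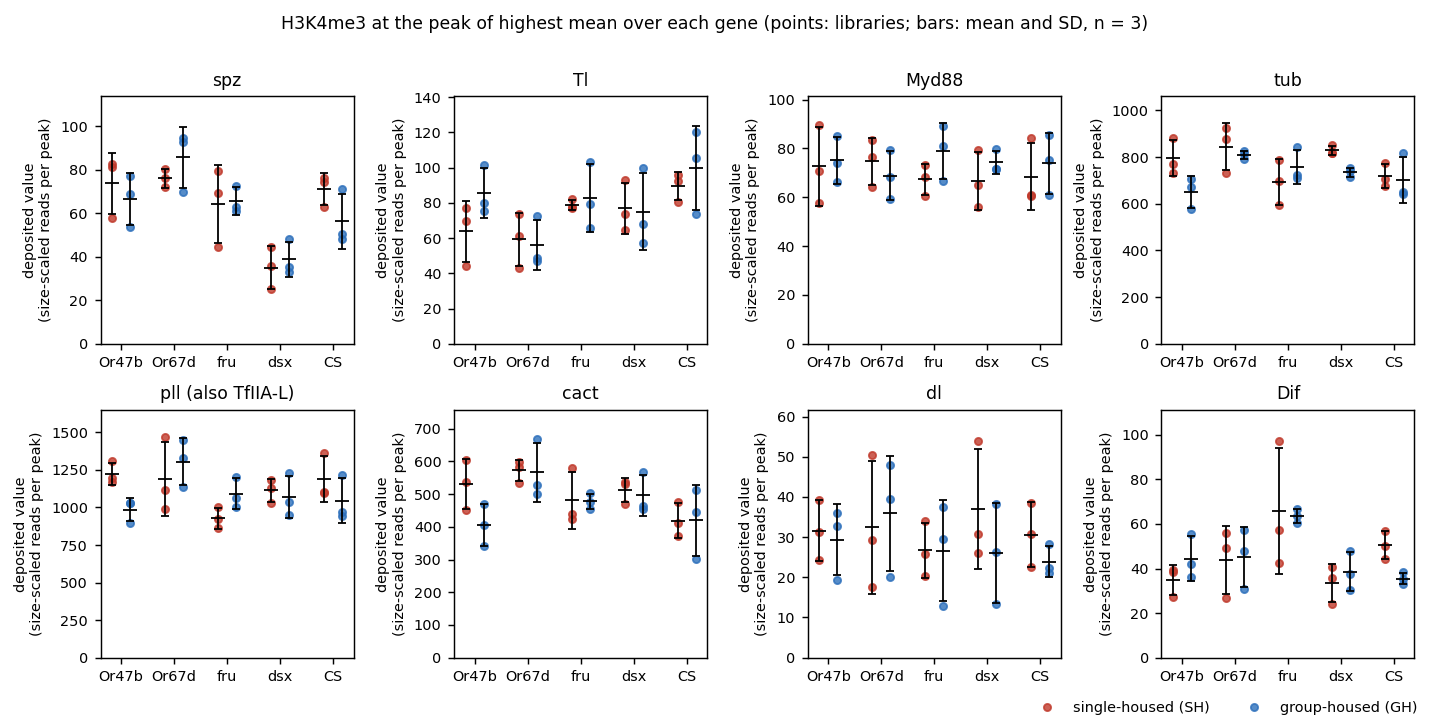
H3K4me3 at the interval of highest mean over each of 8 Toll pathway genes, as deposited values per interval (vertical axis, from 0) by genotype (horizontal axis). Points are libraries, red for single-housed and blue for group-housed males, and bars are the mean and SD of 3. The dsx libraries of spz lie at 25.0 to 48.2, against 48.0 to 76.4 in CS, and the Or67d libraries of Tl at 43.3 to 73.4, against 73.6 to 120 in CS.

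The ligand gene spz had less H3K4me3 in dsx brains. Its main interval (3R:27066821-27067809) had values of 25.0, 35.7 and 44.5 in dsx SH libraries and 32.9, 35.3 and 48.2 in dsx GH libraries. In CS it had 76.4, 63.0 and 74.3 in SH libraries and 48.0, 50.3 and 71.0 in GH libraries. The highest dsx library lay just above the lowest CS library, and the other 5 dsx libraries lay below every CS library. The mean was 36.9 ± 8.32 in dsx and 63.8 ± 12.3 in CS (SD, n = 6 each), a log2 change of -0.78 with an SE of 0.16 and an adjusted p of 0.000921 (limma). It was the only one of 30 Toll gene intervals past the threshold in dsx, where 5.4% of all tested intervals passed, 1.98% lower and 3.42% higher. In brains pooled from many cell types, fewer cells of a type and less signal per cell cannot be told apart.

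The other mutants showed other levels at this spz interval. It had 70.3 ± 12.3 in Or47b, 81.0 ± 10.6 in Or67d and 65.0 ± 11.96 in fru (SD, n = 6 each), against 63.8 ± 12.3 in CS, and none of these passed the threshold. The lowest value was 53.6 in Or47b, 69.7 in Or67d and 44.6 in fru, so no Or47b or Or67d library was as low as any dsx library. The differences between mutants were not tested. The second spz interval (3R:27069949-27070304), which lay over 1 end of the gene's span, had 18.2 ± 4.44 in dsx and 26.2 ± 5.66 in CS (SD, n = 6 each). Its log2 change of -0.51 gave an adjusted p of 0.189 (limma).

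The spz result held under the processing settings tried. Under 13 other settings its log2 change was between -1.01 and -0.67 and its adjusted p at most 0.0124. The setting with only intervals over 1 gene repeats the main fit at spz by design. With any 1 of the 30 libraries left out the change was -0.87 to -0.67. Only fits without a dsx or CS library could move it, and the others kept -0.78 by design. The dsx libraries also differed from CS in the spread between strong and weak intervals. The range of log2 values between the 10th and 90th percentile was 6.45 ± 0.220 in dsx and 6.05 ± 0.270 in CS (SD, n = 6 each, exact permutation p = 0.0195, two-sided). With that spread as a covariate the change at spz was -1.01. Without CS GH 1 and CS GH 2 it was -0.97 (adjusted p = 0.000137, limma) with genotype and housing as separate terms.

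RNAPolII over spz was not lower in dsx. Its 1 interval (3R:27069233-27071859) did not reach the main H3K4me3 interval. It had a lowest, median and highest value of 115, 126 and 147 in dsx, against 103, 107 and 117 in CS. The mean was 127 ± 11.2 in dsx and 109 ± 6.94 in CS (SD, n = 6 each), a log2 change of 0.22 with a 95% interval of 0.015 to 0.42 and an adjusted p of 0.273 (limma). All 4 mutants had a higher mean here than CS, with 128 ± 14.6 in Or47b, 122.9 ± 20.3 in Or67d and 122.7 ± 13.7 in fru (SD, n = 6 each), and none passed the threshold. The 4 comparisons share the CS libraries.

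The receptor gene Tl had less H3K4me3 in Or67d brains at its last interval. The lowest, median and highest values were 43.3, 55.0 and 73.4 in Or67d, against 73.6, 94.0 and 120 in CS. The libraries of the genotypes did not overlap, by a narrow margin. Tl was the only 1 of 30 Toll gene intervals with separate libraries in this comparison, and 6.33% of all tested intervals had them. In Or47b, fru and dsx 0 of 30 were separate from CS, against 0.737%, 1.27% and 2.55% of all tested intervals. The mean was 57.6 ± 13.3 in Or67d and 94.7 ± 16.8 in CS (SD, n = 6 each), a log2 change of -0.72 with an SE of 0.16 and an adjusted p of 0.000938 (limma). The other 12 Tl intervals did not pass the threshold, with values such as 69.6 ± 12.1 in Or67d and 74.6 ± 8.8 in CS at the next strongest (SD, n = 6 each).

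CS had the highest mean of the 5 genotypes at the last Tl interval. It had 74.7 ± 18.5 in Or47b, 80.8 ± 12.4 in fru and 75.9 ± 16.7 in dsx (SD, n = 6 each), against 94.7 ± 16.8 in CS. These 3 mutants overlapped CS, and none passed the threshold. The 3 intervals over other genes whose log2 values followed it most closely over 30 libraries were at CG8303 (Pearson r = 0.83), at 5-HT7, a serotonin receptor gene (r = 0.81), and at CG7365 (r = 0.80), out of 12869 compared. All these points share library depth and scaling, and the log2 value at Tl itself had r = -0.65 with the spread between strong and weak intervals of the library.

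With the last Tl interval, 6 of 30 Toll gene intervals passed the threshold in Or67d, 3 higher and 3 lower. Of all tested intervals 30% passed, 17.5% higher and 12.5% lower. With TMM rescaling, which moved the split over all tested intervals to 1686 higher and 2209 lower, against 2540 higher and 1810 lower before it, 2 Toll gene intervals were higher and 5 lower. The share of Toll gene intervals was 20%, below that background, but with quantile normalization it was 10%, where 7.55% of all passed. The 3 calls kept there were Tl (-0.67, adjusted p = 0.00449), the second dl interval (-0.90, 0.0275) and the small tub interval (1.03, 7.5e-05). cact, the inhibitor, had a lowest, median and highest value of 502, 560 and 670 in Or67d, against 301, 429 and 514 in CS, at its single interval (2L:16324898-16326065). The groups overlapped only at the highest CS library. The mean was 570 ± 60.6 in Or67d and 420 ± 76.3 in CS (SD, n = 6 each), a log2 change of 0.46 with an adjusted p of 0.00122 (limma). With quantile normalization the change was 0.22 and narrowly missed the threshold (adjusted p = 0.0501).

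The adaptor gene tub rose at both of its intervals. The small one (3R:4389133-4389370) had 49.9, 79.8 and 91.3 as lowest, median and highest value in Or67d, against 29.6, 38.7 and 53.8 in CS. Only the lowest Or67d library reached into the CS range. Its mean was 73.8 ± 16.0 in Or67d and 39.7 ± 7.96 in CS (SD, n = 6 each), a log2 change of 0.87 with an adjusted p of 0.000513 (limma). The main tub interval (3R:4387622-4388597) had 827 ± 67.4 in Or67d and 710 ± 71.1 in CS (SD, n = 6 each), a log2 change of 0.22 with an adjusted p of 0.0468 (limma). This small change turned to -0.03 with quantile normalization and to -0.02 with the spread covariate, and 18 of 30 fits that left out 1 library lost it.

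The transcription factor genes fell at weak inner intervals and not at their main ones. The second dl interval (2L:17440067-17440806) had 8.21 ± 2.24 in Or67d and 22.3 ± 7.27 in CS (SD, n = 6 each), a log2 change of -1.30 with an adjusted p of 0.00155 (limma). Of the CS libraries, 5 lay between 20.8 and 30.2, and CS GH 3, at 10.1, lay within the Or67d range of 4.80 to 11.7. The first Dif interval (2L:17416015-17417338) had 23.5 ± 8.0 in Or67d and 39.0 ± 8.74 in CS (SD, n = 6 each), a log2 change of -0.73 with an adjusted p of 0.0211 (limma), and the groups overlapped. The main intervals had 34.1 ± 14.0 in Or67d and 27.3 ± 6.69 in CS at dl, and 44.6 ± 13.0 in Or67d and 43.0 ± 9.26 in CS at Dif (SD, n = 6 each), and did not pass. Main intervals of pll (1249 ± 195 in Or67d and 1116 ± 156 in CS), Myd88 (71.8 ± 9.36 in Or67d and 71.2 ± 12.1 in CS) and spz did not pass either (SD, n = 6 each).

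The dl and Dif intervals that fell in Or67d were weak, and the cact and main tub intervals that rose were strong. A like order was seen across all tested intervals: in 4 equal groups from the weakest intervals to the strongest, the median log2 change in Or67d was -0.38, -0.31, -0.06 and 0.24, and the Toll gene intervals in those groups had medians of -0.19, -0.11, 0.05 and 0.22. The spread between strong and weak intervals was 6.65 ± 0.133 in Or67d and 6.05 ± 0.270 in CS (SD, n = 6 each, exact permutation p = 0.00433, two-sided). The small tub interval, which rose, and the Tl interval, which fell, both belonged to the third of these groups, whose median was -0.06. In that group 17.2% of all tested intervals were lower and 8.46% higher. The groups go by value and take no account of length. Per kb the small tub interval was above 76.3% of tested intervals and the Tl interval above 13.5%. With the spread as a covariate no Toll gene interval passed, where 1.21% of all tested intervals did: Tl had -0.46 (adjusted p = 0.322), the small tub interval 0.65 (0.139), cact 0.16 (0.628), dl -0.52 (0.648) and Dif -0.05 (0.982). Without CS GH 1 and CS GH 2, and with genotype and housing as separate terms, 4 of 30 passed, where 6.3% of all tested intervals did. These were Tl (-0.60, adjusted p = 0.0309), cact (0.38, 0.0326), dl (-1.16, 0.0293) and the small tub interval (0.84, 0.00699), while Dif had -0.75 (0.0773), all from limma. With group means instead, CS GH 3 alone had the weight of the 3 CS SH libraries together and was assumed to vary like the other groups. The small tub interval then had a log2 change of 0.98.

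**Figure D2:**
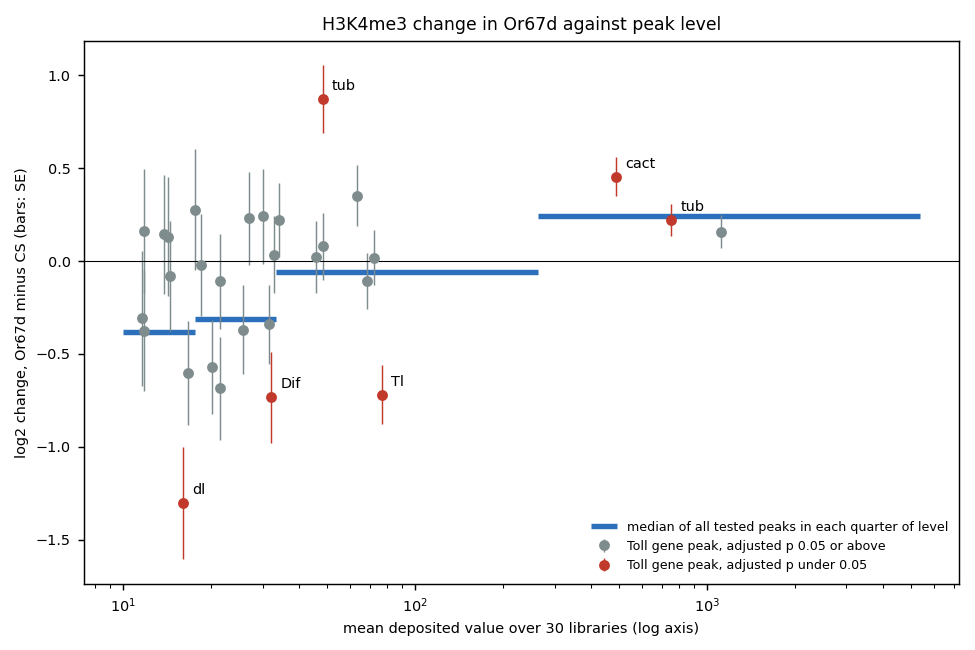
H3K4me3 log2 change of the 30 Toll gene intervals in Or67d minus CS (vertical axis, bars are the SE) against their mean value over 30 libraries (horizontal log axis). Red points passed the threshold, grey points did not, and blue lines are the medians of all tested intervals in 4 equal groups of level, from -0.38 for the weakest to 0.24 for the strongest.

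In Or47b and fru brains no Toll gene interval passed the threshold with H3K4me3. limma called 0 of 30 in Or47b, with 3 at an unadjusted p under 0.05, where 0.806% of all tested intervals passed, and edgeR and DESeq2 also called 0, where DESeq2 gave an adjusted p to 28 of the 30. limma called 0 of 30 in fru, with 4 at an unadjusted p under 0.05, where 2.2% of all passed, and edgeR called 0. DESeq2 called 1 in fru, the main Dif interval (2L:17432469-17433540), chosen here after its values were seen. That interval had 64.6 ± 18.1 in fru and 43.0 ± 9.26 in CS (SD, n = 6 each), a log2 change of 0.56 with an adjusted p of 0.123 in limma and 0.76 with 0.0487 in DESeq2, which called 3.08% of the intervals to which it gave an adjusted p, 15 of them over Toll genes. The DESeq2 fit lacked fru SH 1, fru GH 1 and CS GH 2, so the limma and DESeq2 results rest on different libraries. Without fru SH 1, limma gave a log2 change of 0.69 with an adjusted p of 0.0300. The lowest, median and highest values were 42.5, 61.9 and 97.3 in fru, against 33.0, 41.3 and 56.9 in CS, so the groups overlapped.

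**Figure D3:**
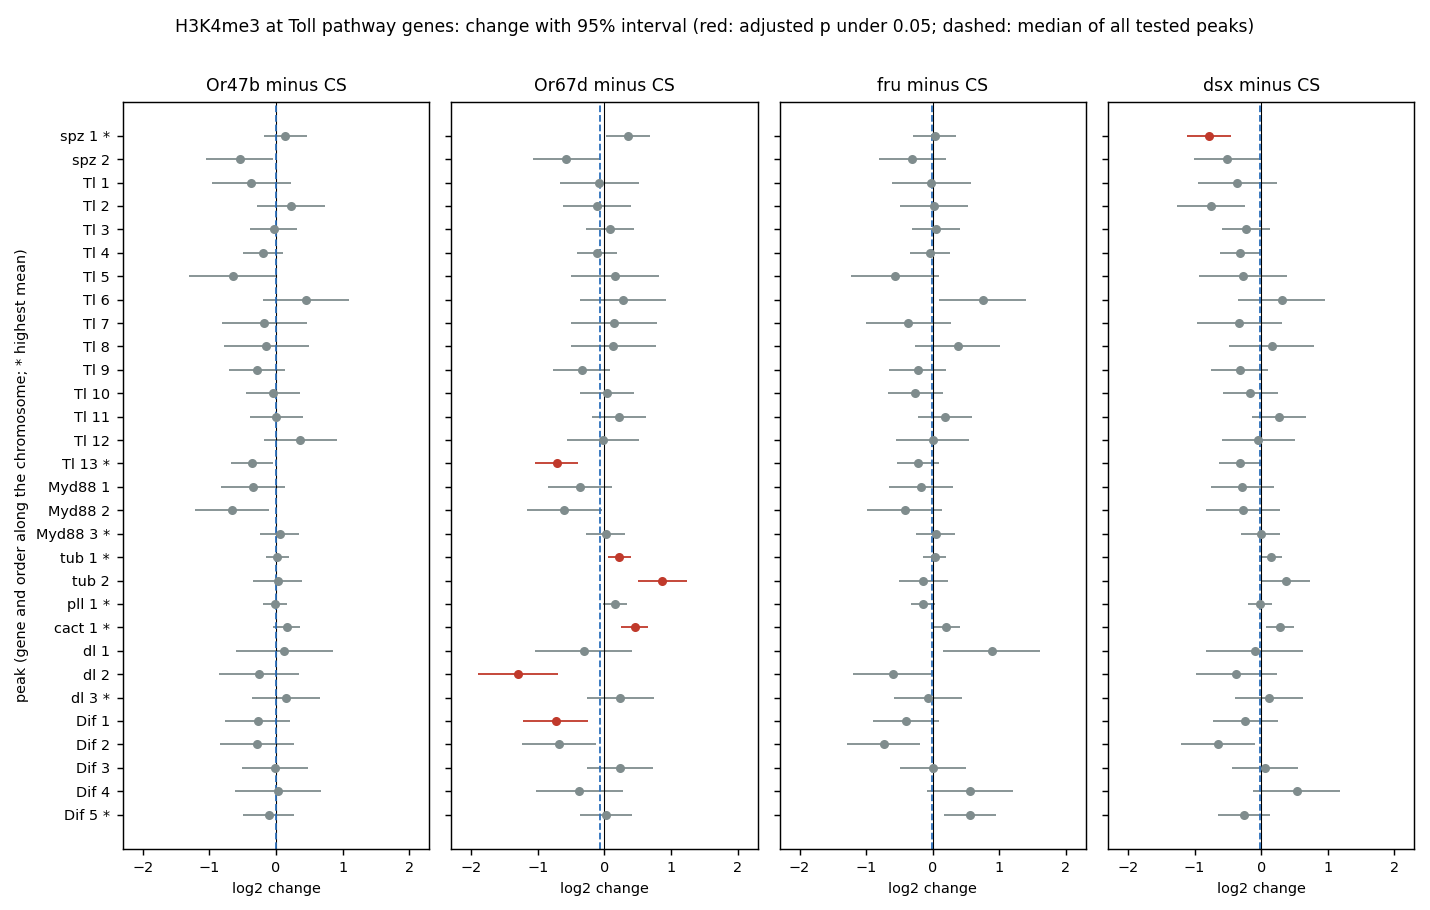
H3K4me3 log2 change (horizontal axis, with its 95% interval) of each of the 30 Toll gene intervals in the 4 mutants minus CS. Rows are intervals named by gene and order along the chromosome, a star marks the highest mean, red marks an adjusted p under 0.05, and the dashed line is the median of all tested intervals. Of the red points, 6 are in Or67d and 1, at spz, is in dsx.

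RNAPolII lay over Toll genes in broad stretches. Tl was covered by 7 intervals of 3073 to 12786 bp, and the longest was longer than 99.3% of tested ones. Per kb, the highest level was at the main cact interval (103 ± 21.2) and the first Tl interval (96.8 ± 23.1; SD, n = 30 each), whose difference was less than their SD, against a median of 40.6 over 21076 tested intervals. The other 6 Tl intervals had 42.5 to 76.4 per kb. tub had 82.0 ± 7.67 in a stretch that also covered Sfxn1-3 and Cont. The second Myd88 interval had 69.6 ± 6.83, above 82.7% of tested intervals, and the main one, which also lay over Drep2, had 53.4 ± 5.75, above 69.6% of them. The main intervals of spz (46.4 ± 5.64), dl (43.2 ± 3.69) and Dif (39.1 ± 2.75; SD, n = 30 each) were closer to the median, above 61.0%, 55.6% and 46.8% of tested intervals. That of dl also lay over lncRNA:CR46204, CG5050, SPH93 and CG18563, so the signal at the main tub, Myd88 and dl intervals cannot be given to these genes alone. No RNAPolII interval overlapped pll. One interval covered the end of Dif, the start of dl's span and a pair of other genes, so it is counted once and given to neither.

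No Toll gene passed the threshold with RNAPolII in any mutant. limma called 0 of 22 intervals in each, where 0.56% of all tested intervals passed in Or47b, 1.08% in Or67d, 1.04% in fru and 1.84% in dsx, and edgeR and DESeq2 called 0 as well. At an unadjusted p under 0.05 there were 1 in Or47b, 2 in Or67d, 2 in fru and 3 in dsx. The main Tl interval (3R:26800806-26813592) was the only 1 of 22 whose libraries did not overlap, in fru, where 1.75% of all tested intervals were separate. In Or47b, Or67d and dsx 0 of 22 were separate, against 0.74%, 1.28% and 2.72% of all. Its lowest, median and highest values were 554, 577 and 628 in fru, against 501, 517 and 535 in CS. The mean was 583 ± 30.5 in fru and 518 ± 15.7 in CS (SD, n = 6 each), a log2 change of 0.17 with an adjusted p of 0.285 (limma).

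**Figure D4:**
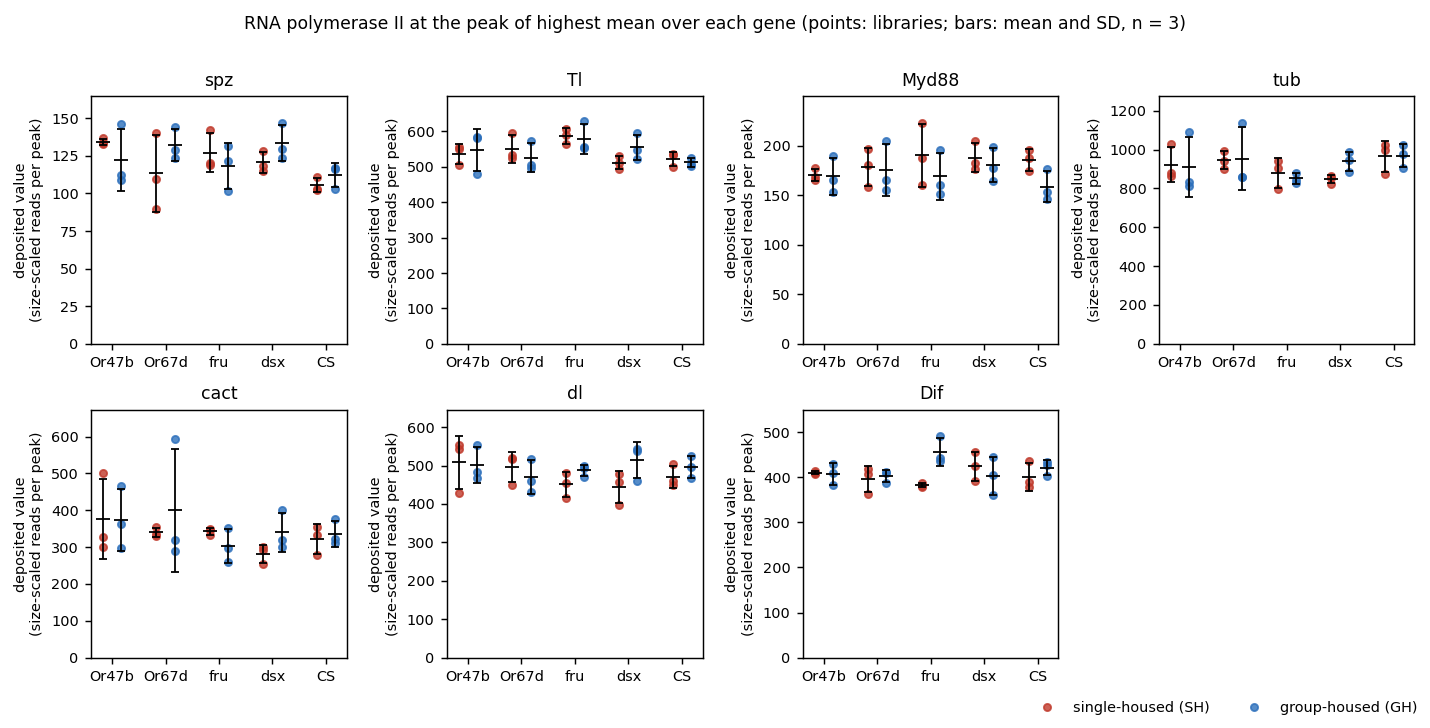
RNAPolII at the interval of highest mean over each of 7 Toll pathway genes, as deposited values per interval (vertical axis, from 0) by genotype (horizontal axis). Points are libraries, red for single-housed and blue for group-housed males, and bars are the mean and SD of 3. At cact, Or67d GH 3 lies at 593 and Or47b SH 3 and Or47b GH 3 at 502 and 465, against 278 to 377 in CS.

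At the main intervals of the other genes the mutant means ranged from 170.0 to 184 at Myd88, against 172 in CS, from 469 to 505 at dl, against 483 in CS, and from 399.7 to 419.8 at Dif, against 411 in CS. At tub they ranged from 866 to 949, against 967 in CS. Over cact the main interval had 376 ± 87.4 in Or47b, 370 ± 111 in Or67d, 323 ± 37.1 in fru and 311 ± 48.7 in dsx, against 329 ± 34.7 in CS (SD, n = 6 each). The wide SD in Or47b and Or67d came from Or47b SH 3 (502), Or47b GH 3 (465) and Or67d GH 3 (593), and every other library of these genotypes lay at 290 to 362. The same 3 libraries were the highest at the first Tl interval, at 510, 415 and 492. Without them limma still called 0 of 22 in each mutant, as it did without dsx GH 2. Across the 22 intervals and 4 mutants the 95% intervals of the log2 change reached from -0.47 to 1.08, and those of the 7 main intervals from -0.37 to 0.45. For the main intervals a change of 2-fold, a log2 of 1, thus lay outside the 95% interval in each mutant, which for tub, Myd88 and dl is a statement on signal shared with other genes.

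**Figure D5:**
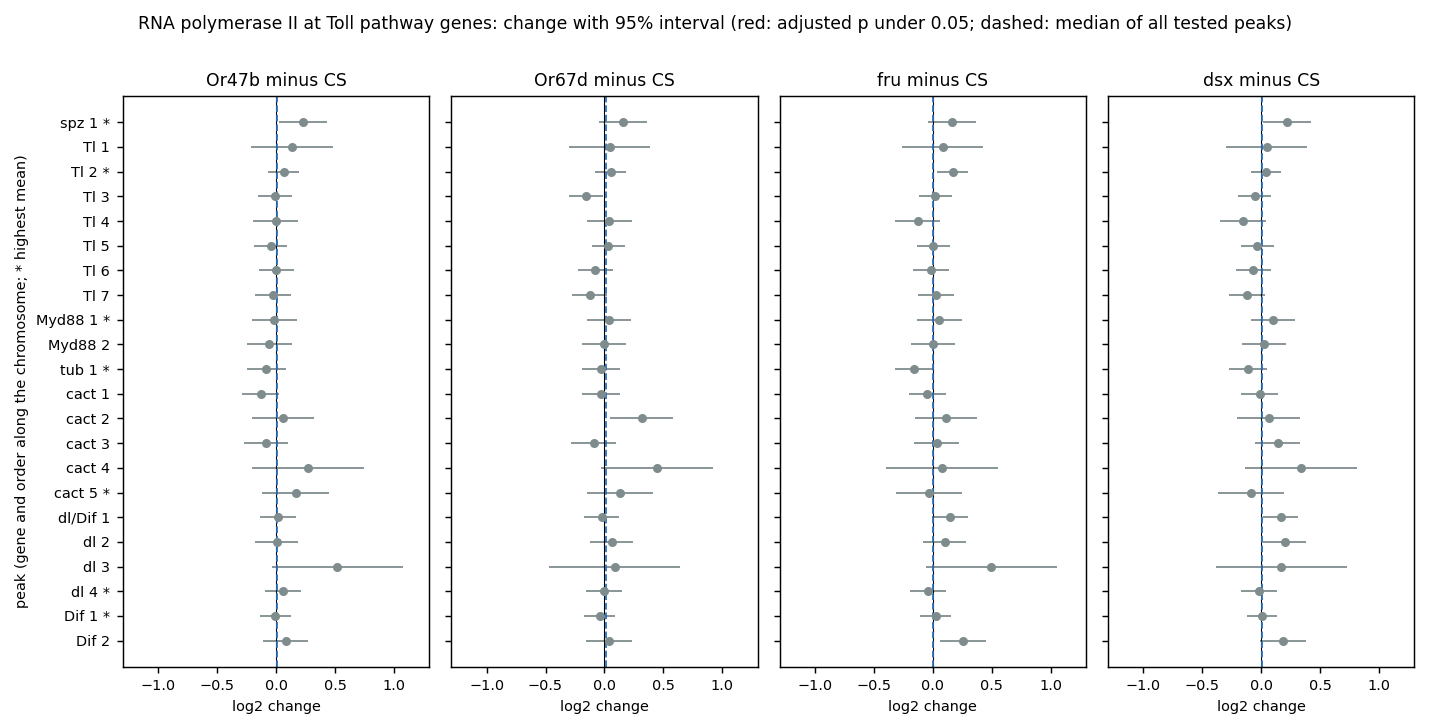
RNAPolII log2 change (horizontal axis, with its 95% interval) of each of the 22 Toll gene intervals in the 4 mutants minus CS. Rows, star and dashed line are as for the H3K4me3 changes, and no point is red. The 95% intervals of the 7 starred intervals lie between -0.37 and 0.45.

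In the main limma fit, housing changed no Toll gene past the threshold with either antibody. In SH minus GH pooled over the 5 genotypes, limma called 0 of 30 H3K4me3 intervals (0 at an unadjusted p under 0.05) and 0 of 22 RNAPolII intervals (1 at an unadjusted p under 0.05), where 0% of all tested intervals passed with each. All pooled 95% intervals at the main H3K4me3 intervals lay between -0.30 and 0.50, and at the main RNAPolII intervals between -0.24 and 0.22. So a 2-fold effect of housing averaged over genotypes lay outside the interval at each main interval. Within genotypes, limma called 0 as well, where 0.0345% of all H3K4me3 intervals passed in Or47b and 0% in each other genotype and with RNAPolII. At an unadjusted p under 0.05 there were 4 H3K4me3 intervals in Or47b, 1 in Or67d, 0 in fru, 0 in dsx and 1 in CS, and 1 RNAPolII interval in each of Or47b, Or67d, fru and dsx and 0 in CS. edgeR called 0 within genotypes, and DESeq2 called 1, the main tub H3K4me3 interval in Or47b (log2 change 0.30, adjusted p = 0.0484), where it gave an adjusted p to only 3 Toll gene intervals and called 28.3% of all that had one. Both of these count tests lacked the H3K4me3 library Or47b SH 2, which the limma fit held.

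In Or47b the 3 strongly marked genes all had higher H3K4me3 means in SH males, without passing the threshold in the main limma fit. tub had 795 ± 77.5 in SH and 651 ± 67.0 in GH libraries (log2 change 0.29, adjusted p = 0.141). pll had 1225 ± 72.9 in SH and 985 ± 77.7 in GH libraries (0.32, adjusted p = 0.126), and cact had 531 ± 77.2 in SH and 406 ± 65.1 in GH libraries (0.39, adjusted p = 0.116; SD, n = 3 each). With the replicate number added to the fit as a block, all 3 genes passed (cact adjusted p = 0.0241, pll 0.0324 and tub 0.0348, limma). The share of all tested intervals that passed in this block fit is not given here. In the main fit 3823 of all 14513 tested intervals had an unadjusted p under 0.05, with 4 of 30 Toll gene intervals (limma). In this contrast the median log2 change over all 9504 genes, by 1 interval per gene, was 0.22. The spread between strong and weak intervals was 6.32 to 6.92 in Or47b SH and 5.79 to 6.20 in Or47b GH libraries, and its part in these differences was not tested. The libraries of tub and pll did not overlap, as in 4 of 30 Toll gene intervals in Or47b, but 30.3% of all tested intervals had separate libraries there. Separate SH and GH libraries were seen at 1 of 30 Toll gene intervals in Or67d (7.83% of all), 3 in fru (6.92%), 2 in dsx (10.2%) and 5 in CS (5.75%). With RNAPolII they were seen at 0 of 22 in Or47b (6.99% of all), 0 in Or67d (7.39%), 3 in fru (8.52%), 5 in dsx (11.7%) and 0 in CS (10%). The housing effect of a mutant minus that of CS passed at no Toll gene interval with either antibody, where 0% of all tested intervals passed. For H3K4me3 3 intervals had an unadjusted p under 0.05 in Or47b, 0 in Or67d, 2 in fru and 1 in dsx, and for RNAPolII 0, 0, 0 and 1. edgeR and DESeq2 called 0, though for Or47b with H3K4me3 DESeq2 gave an adjusted p to only 3 of the 30.

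Other genes of the pathway were described through 1 interval per gene, that of highest mean. Of 19 genes that act upstream of spz, 8 had an H3K4me3 interval, and in Or67d 4 were lower and 0 higher, where 48.8% of all 9504 genes passed, 8.84% lower and 40% higher. They included pip, needed for the embryonic ventral signal (log2 change -1.30), ndl, a protease gene (-0.74), and nec, a protease inhibitor gene whose interval also lay over pk (-0.60). The list's median was -0.50 in Or67d, against 0.20 over all genes. The gene backgrounds here and below were not matched for level. In CS the pip, ndl and nec intervals had means of 28.1 to 48.6. The groups of level below go by the mean over all 30 libraries, not over CS. pip had 28.1 in CS but 11.1 in Or67d and 11.5 in dsx, so its group may be weaker than its CS mean. Of all tested intervals with a mean of 17.5 to 33.5, 18.2% were lower and 1.27% higher in Or67d (median -0.31). From 33.5 to 263 these were 17.2% and 8.46% (median -0.06). Spn27A, at an interval shared with other genes, was also lower (-0.28, mean 618 in CS). Above 263, 0.551% were lower and 59.7% higher. The part of level in these changes was not tested. In dsx only pip was lower (11.5 ± 3.48 in dsx and 28.1 ± 8.24 in CS, SD, n = 6 each, log2 change -1.20, adjusted p = 0.00435, limma), 1 of 8 where 8.44% of all genes passed, 2.1% lower and 6.33% higher.

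Of 13 genes for other Toll receptors and spz relatives, 7 had an H3K4me3 interval, and 4 were lower and 0 higher in Or67d, where 48.8% of all genes passed, 8.84% lower. The ones that fell most were NT1, a spz relative that acts as a neurotrophin (-0.95), Tollo, a Toll receptor gene (-0.83), and spz3 (-0.77). In dsx spz4 was lower (-0.63, adjusted p = 0.0299, limma), 1 of 7 where 2.1% of all genes were lower. Of 7 cytoplasmic modulators, 5 had an interval, and 3 were higher and 0 lower in Or67d, where 40% of all genes were higher: mop (0.39), Deaf1 (0.31) and Traf6 (0.27), each at an interval shared with another gene. Traf6 was also higher in dsx (0.31, adjusted p = 0.0298, limma), 1 of 5 where 6.33% of all genes were higher. The medians of the receptor and modulator lists in Or67d were -0.53 and 0.27, against 0.20 over all genes. In CS the named receptor and ligand intervals had means of 36.0 to 66.1 and the named modulator intervals 348 to 3398. The groups of level below go by the mean over all 30 libraries, so an interval's group may differ from its CS mean. Of all tested intervals, 18.2% were lower in Or67d at a mean of 17.5 to 33.5 and 17.2% at 33.5 to 263. Above 263, 0.551% were lower and 59.7% higher. The part of level in the changes of these lists was not tested.

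The Imd pathway, Rel's own, had 16 of 21 genes with an H3K4me3 interval, and 5 were higher and 2 lower in Or67d, against 40% and 8.84% of all genes. In dsx 0 passed, where 8.44% of all genes did. Dredd, a caspase gene (0.33), Diap2, a ubiquitin ligase gene (0.32), and casp, an inhibitor of the pathway (0.28), rose most, and PGRP-LB, an enzyme gene that degrades peptidoglycan (-0.97), and Tab2 (-0.61) fell. The Dredd interval also lay over su(sable), that of Diap2 over bug and that of PGRP-LB over CG17230, while those of casp and Tab2 lay over no other gene. With RNAPolII 1 Imd gene was higher in Or47b, PGRP-LA (249 ± 46.8 in Or47b and 171 ± 13.8 in CS, SD, n = 6 each, log2 change 0.52, adjusted p = 0.00684, limma), where 0.242% of all genes passed. hep, a kinase gene, was lower in dsx (200 ± 35.5 in dsx and 273 ± 27.7 in CS, SD, n = 6 each, log2 change -0.46, adjusted p = 0.0131, limma), where 2.2% of all genes passed. Of 20 genes for antimicrobial peptides and related targets only 2 had an H3K4me3 interval, and Dro, at an interval shared with jef, was higher in Or67d (0.39), 1 of 2 where 40% of all genes were higher. No gene of the lists named here passed in the pooled housing comparison.

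Cells that carry much Toll signalling outside the nervous system were followed by marker lists in the same libraries. Of 10 hemocyte markers 5 had an H3K4me3 interval (He, eater, Col4a1, vkg and Sr-CI had none), and their summed level was 1613 to 1886 in dsx and 1668 to 1877 in Or67d, against 1392 to 1689 in CS. The median log2 change of these 5 genes was 0.04 in dsx and 0.08 in Or67d, against 0.12 and 0.20 over all genes. The summed level of the neuron markers was 5714 to 6810 in dsx and 6010 to 6811 in Or67d, against 4885 to 6382 in CS. NimC1, a phagocytosis receptor gene, was lower in dsx (-1.06) and Or67d (-0.99). Pxn, at an interval shared with lncRNA:CR45982 and lncRNA:CR45660, was higher in Or67d (0.35). So 1 of 5 passed in dsx and 2 of 5 in Or67d, where 8.44% and 48.8% of all genes passed. Of 9 fat body markers 6 had an interval (Lsp2, Yp3 and Fbp2 had none), with a summed level of 742 to 913 in dsx and 777 to 913 in Or67d, against 725 to 938 in CS. Lsp1beta, a larval storage protein gene, was lower in dsx (-0.59) and Or67d (-0.80), and in Or67d Yp2, a yolk protein gene, was lower (-1.20) and apolpp, at an interval shared with Zyx, was higher (0.39), so 1 of 6 passed in dsx and 3 of 6 in Or67d. The apolpp interval alone averaged 725 in Or67d and 562 in CS and so made up most of that sum, while the median log2 change of the 6 genes was -0.42 in dsx and -0.44 in Or67d. With RNAPolII Hml, a hemocyte gene, was lower in dsx (19.6 ± 6.82 in dsx and 45.0 ± 9.92 in CS, SD, n = 6 each, log2 change -1.19, adjusted p = 0.000457, limma). Of the 8 hemocyte markers with an RNAPolII interval it was the only 1 that passed in dsx, where 2.2% of all genes passed. The median log2 change of these markers was -0.05, against -0.04 over all genes. Their summed level was 2422 to 2720 in dsx, against 2468 to 2751 in CS. The part of other cell types in the spz and Tl results was not tested.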

How the data were processed

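H3K4me3 and RNAPolII were measured by CUT&RUN in 60 libraries of 75-bp paired reads, per the labels' protocols. The submitters' processing notes name Trim Galore, Bowtie2, MACS2, DESeq2 and ChIPseeker without versions. The genome build, read counting and peak merging were not stated in those notes or in the labels. The deposited tables hold signal: counted reads in each peak, scaled by the authors with 1 size factor for each library. Whole reads were recovered in 26 H3K4me3 and 28 RNAPolII libraries (100% of values whole within 0.01 reads) for edgeR 4.0.16 and DESeq2 1.42.0. Columns were joined to samples by the library names in the labels. CS libraries carry other replicate numbers in the tables than in their titles, and the titles' numbers were used, which limits what a comparison of same-numbered libraries can show.

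Genes were named by overlap with Release 6 plus ISO1 MT RefSeq spans, without strand, on the assumption that the deposited coordinates are of that release. Peaks with a mean of at least 10 were tested, 14513 with H3K4me3 and 21076 with RNAPolII, and all 30 and 22 Toll gene peaks were among them. log2(value + 1) was fitted with limma 3.58.1 in R 4.3.3 over 10 group means (two-sided, 14 comparisons per antibody), and the fit was tested on simulated data. Tables and figures used Python 3.11.15, pandas 2.3.3 and matplotlib 3.10.9. Values were given for the peak of highest mean per member, other member peaks past the threshold, and at most 3 genes per direction of the other lists. Members, lists and tests were chosen with earlier results of these data known. Deviations of same-numbered replicates from their group means correlated at -0.23 to 0.54 (medians from -0.0028 to 0.13). Since not every pair was above 0.1 and the labels name no shared batch, no pairing was used. This rule was no test for a replicate effect. For H3K4me3 replicate 3 had the widest spread in 9 of 10 groups, and fits with a replicate block are given below.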

Additional observations from a re-analysis of the deposited data

Results flagged for a closer look

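The RNAPolII value of the main cact interval in library Or67d GH 3 was 592.783, while the other 5 Or67d libraries lay between 290 and 354. Its distance from the nearest library took up 0.788 of the whole range of the genotype, above the 0.625 allowed for 6 libraries. Chance alone sets about 1 in 20 such groups apart, and 75 were examined. H3K4me3 at the pll interval had opposite housing effects in 2 mutants: in Or47b every SH library was above every GH library (1225 ± 72.9 in SH and 985 ± 77.7 in GH, log2 change 0.31618), and in fru every SH library was below every GH library (928 ± 70.6 in SH and 1090 ± 103 in GH, log2 change -0.23; SD, n = 3 each). Neither effect passed the threshold, and the difference between them was not tested.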

How the results depend on the processing

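Of the 14 counts of Toll gene intervals past the threshold, those for Or47b, for pooled housing and for RNAPolII in Or67d, fru and housing were 0 under each setting tried. The Or67d H3K4me3 count of 6 was 3 with quantile normalization, 0 with the spread covariate and 1 without CS GH 1 and CS GH 2 together (4 if genotype and housing are separate terms), and 4 to 9 with 1 library left out. The fru H3K4me3 count of 0 was 2 with quantile normalization (Dif and pll), 1 with DESeq2 (Dif), 1 without CS GH 1 and CS GH 2 (Tl at 3R:26817706-26818162, 0 with separate terms), and 0 to 1 with 1 library left out (1 without fru SH 1 or CS GH 1). The dsx H3K4me3 count of 1 was 1 to 3 with 1 library left out, 3 without fru SH 3, dsx SH 1 or CS GH 3, adding cact (0.28 to 0.36) and the second Tl interval (-0.85 to -0.75), and 2 without CS SH 1, adding that Tl interval (-0.91). The dsx RNAPolII count of 0 was 1 (the first Tl interval) with the covariate. Within genotypes the housing count of 0 for H3K4me3 was 1 with DESeq2 and 1 without CS GH 1 and CS GH 2, where the housing difference from CS also gave 1. Both calls without the CS libraries were at that same Tl interval, and these fits without 2 CS GH libraries rest on CS GH 3 alone, assumed to vary like the other groups. With the replicate number as a block, the dsx count was 3 and the housing count within genotypes 3, all in Or47b (cact 0.39, adjusted p = 0.0241; pll 0.32, 0.0324; tub 0.29, 0.0348; limma), and no other count of Toll gene intervals moved by over 1.5 times. For that Or47b housing contrast, the share of all intervals past the threshold with the block is not given here. In the main fit 3823 of all 14513 had an unadjusted p under 0.05 (limma). As a hint from the data, replicate 3 had the widest H3K4me3 spread in 9 of 10 groups. The share of all H3K4me3 intervals past the threshold moved by over 1.5 times in Or67d (30%; 7.55% with quantile normalization, 10.9% with edgeR, 18.1% with DESeq2, 1.21% with the covariate, 1.77% without the CS libraries), in dsx (5.4%; 16.8% with the block, 1.78% with the covariate, 3% with edgeR, 0.958% without the CS libraries), in fru (2.2%; 5.25% with quantile normalization, 4.84% with the block, 0.999% without the CS libraries) and in Or47b (0.806%; 1.41% with quantile normalization, 1.81% with the block, 0.413% without the CS libraries), and with separate terms and without the CS libraries it was 6.3%, 1.32%, 1.2% and 0.482% in Or67d, dsx, fru and Or47b. The main tub interval in Or67d had a log2 change of 0.22, which became -0.0316 with quantile normalization and -0.0218 with the covariate. Leaving out the CS libraries together and the separate terms were chosen after seeing the data. The causes were not tested. Intervals of mean value near the minimum of 10 had the widest errors, and depth limits what can be seen there.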
